A study of Mus musculus with 23 samples.

Results

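The regions described here are the 100 bp stretches of liver DNA whose methylation was listed as different between male mice lacking STAT5a and STAT5b in hepatocytes and control males. They were taken from the authors' deposited table as every region with a value other than 0 for KO males against control males, which gave 2153 of the 3885 regions listed for any of 4 comparisons (55.4%). The comparison set 6 KO males against 6 control males. The other lists in the table used 6 KO females and 5 control females. KO mice came from mating mice with a floxed Stat5a-Stat5b locus, of mixed C57BL/6 and 129J background, with an FVB/N line. That line carried Cre under the albumin promoter, a cross that serves to remove both genes in hepatocytes. No value used here shows how complete the removal was or whether other liver cells kept the genes. Control mice carried the floxed locus, and nothing in the labels gives them the Cre transgene. All animals were 8 to 12 weeks old, and each library came from the liver of a single mouse. Marker genes could not be used to check the tissue, since no expression was measured. In the table the controls are written WT, which was read as the floxed control mice.

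STAT5a and STAT5b are transcription factors that are switched on when growth hormone binds its receptor on hepatocytes. In male mice growth hormone reaches the liver in pulses and STAT5 activity follows them, while in females both are more continuous, and many genes that differ between male and female liver depend on this signal. Methylation of cytosine at CpG sites is a stable mark of DNA that is often low at active promoters and enhancers and high elsewhere. In whole liver a methylation level averages over hepatocytes and other cells, so a change within a cell type and a change in the mix of cell types cannot be told apart.

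Methylation was read by reduced representation bisulfite sequencing, in which the enzyme MspI cuts at CCGG and short fragments are sequenced after bisulfite has turned unmethylated cytosines into uracil. Each value is the difference in percent methylation, KO males minus control males, in percentage points. The legend gives the listing rule as a difference of more than 15 points in either direction with a q-value under 0.05. A value of 0 marks a region that was not listed, whatever its true difference. The table holds no level, coverage, q-value or value per mouse, so the depth behind each difference is unknown, no standard deviation between mice can be given, and all statements below describe lists of regions. The titles of the KO male libraries carry the codes G130 (2 libraries) and G131 (4), and those of the control males G128 (4) and G129 (2). The labels do not say what the codes stand for. No code is shared between KO males and control males, so genotype and whatever the codes mark cannot be told apart, nor can genotype and any difference in strain background.

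Loss of STAT5 in male liver went with more gains than losses of listed methylation. KO males were higher than control males at 1467 regions (37.8% of all 3885 listed regions) and lower at 686 (17.7%). Gains therefore made up 68.1% of the list (95% exact interval 66.1 to 70.1). Intervals here are Clopper-Pearson intervals that cover counting error only. They treat regions as independent, although neighbouring regions share fragments and all regions share the same 12 mice.

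Most differences were moderate. Gains had a median of 20.5 points, with 27.3% (401 regions) at 25 points or more and 2.18% (32 regions) at 40 points or more. Losses had a median of -19.5 points, with 22.6% (155 regions) at 25 points or more in size and 2.77% (19 regions) at 40 points or more. The listed sizes crowded toward the threshold. Within 0.1 point of it lay 19 regions, 16 gains starting at 15.01 points and 3 losses starting at -15.03 points, and what lay just outside was not listed. The share of gains was 65.4% among sizes of 15 to 20 points, 69.2% at 20 to 25, 73.6% at 25 to 30, 72.4% at 30 to 40 and 62.7% at 40 to 60, where the list held 51 regions and the interval ran from 48.1 to 75.9. Gains were thus the majority in every size class, but in the largest class the interval included an equal split.

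**Figure D1:**
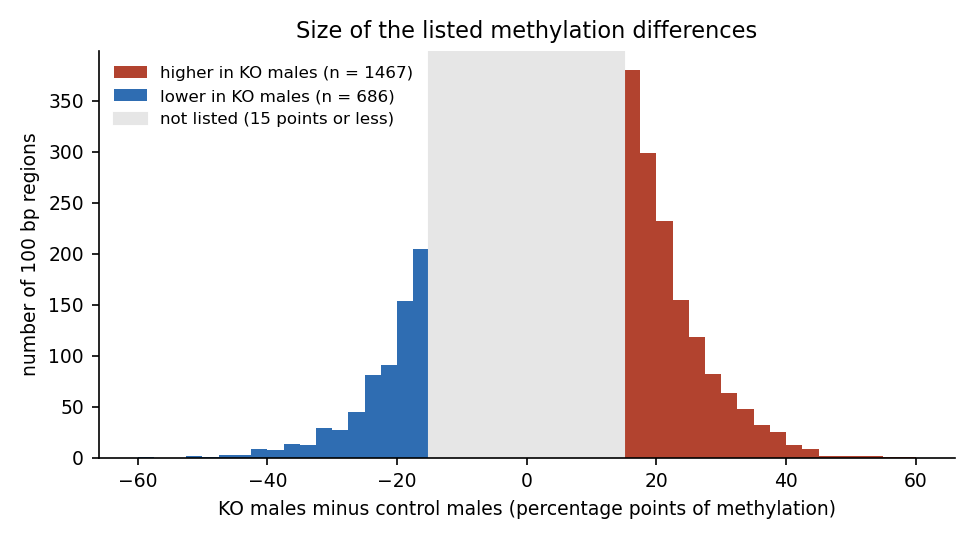
Histogram of the 2153 listed differences, KO males minus control males, in percentage points of methylation (horizontal axis) against the number of 100 bp regions (vertical axis), in bins of 2.5 points. Red bars are the 1467 regions higher in KO males, blue bars the 686 regions lower in KO males, and the grey band is the range in which nothing was listed.

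The largest gains lay on 6 chromosomes and were often accompanied by close neighbours. The first was chromosome 3, 119802001 to 119802101 (mm9 here and throughout), for which the authors' deposited table gives 58.82 points. The second was chromosome 4, 140775701 to 140775801, at 55.22 points in the authors' deposited table. Next in the authors' deposited table came a pair about as large on distal chromosome 2, at 172805601 to 172805701 (54.87 points) and 172888001 to 172888101 (53.89 points). Of the 10 largest gains, 7 had another listed region within 1 kb. In the whole list 26.1% of regions did, and 29.7% of gains had another gain that close. An example among the 10 is the touching pair on chromosome 3 at 18146401 to 18146601, with 49.36 and 47.52 points in the authors' deposited table. The regions of this pair count separately in the 7. The remaining 4 of the 10 were, in the authors' deposited table, 52.4 points at chromosome 11, 107126701 to 107126801, 52.25 points at chromosome 6, 149138201 to 149138301, 47.4 points at chromosome 5, 143069301 to 143069401, and 46.11 points at chromosome 3, 108632501 to 108632601.

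The largest losses stood more alone than the largest gains. Of the 10 largest, on 7 chromosomes, 1 had another listed region within 1 kb. Among all losses 17.9% had another loss that close, so this count does not set the largest losses apart from other losses. The first was chromosome 11, 88289701 to 88289801, at -58.88 points in the authors' deposited table, followed there by -51.2 points at chromosome 5, 76133701 to 76133801, and -50.17 points at chromosome 11, 84777601 to 84777701. The next 4 in the authors' deposited table were -47.97 points at chromosome 4, 141022001 to 141022101, -46.1 points at chromosome 2, 177859801 to 177859901, -45.64 points at chromosome 3, 39720801 to 39720901, and -45.51 points at chromosome 17, 56617401 to 56617501. The last 3 in the authors' deposited table were -43.32 points at chromosome 3, 116385201 to 116385301, -42.91 points at chromosome 5, 77526201 to 77526301, and -42.77 points at chromosome 1, 166908101 to 166908201. No gene is assigned to these positions, since no annotation of mm9 was used here.

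All 19 autosomes held listed regions, from 66 on chromosome 13 to 215 on chromosome 5, and gains outnumbered losses on each. The share of gains had a median of 68.0% over chromosomes. It was highest on chromosome 2 (84.8%, 145 of 171 regions) and lowest on chromosome 4 (60.6%, 120 of 198). The interval of a chromosome's share held the overall 68.1% on 17 of the 19. The exceptions were chromosome 2 above it (78.5 to 89.8) and chromosome 4 below it (53.4 to 67.5). In the KO female list gains made up 60.9% of 1092 regions and outnumbered losses on 16 of 19 chromosomes. The shares of the lists lay farther apart on some chromosomes, chosen after their values were seen: on chromosome 14, gains made up 61.4% of the 70 regions listed for KO males and 36.2% of the 69 listed for KO females, and on chromosome 6 the shares were 73.5% of 102 and 43.2% of 74. The difference was not tested, as neither list has values per mouse. Chromosome 3 had the highest share of its listed regions in the KO male list (72.4%, 123 of 170) and chromosome 12 the lowest (42.1%, 69 of 164). Stat5a and Stat5b are on chromosome 11, per the RefSeq gene table. That chromosome held 121 of the regions with 61.2% gains, and without it the overall share of gains was 68.6%.

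**Figure D2:**
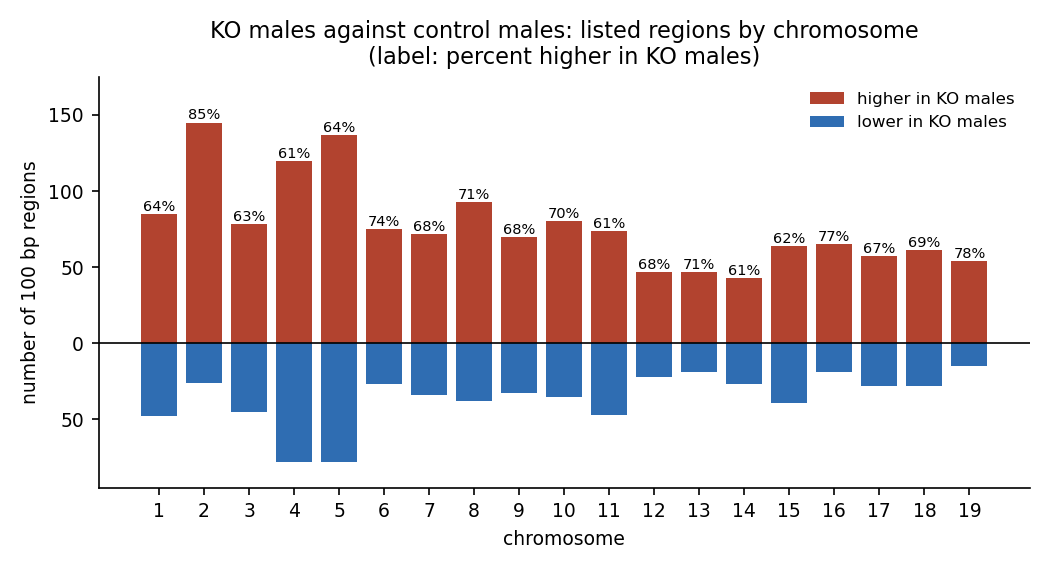
Number of 100 bp regions listed for KO males against control males on each of the 19 autosomes (horizontal axis), with regions higher in KO males drawn upward in red and regions lower in KO males drawn downward in blue, and the percent higher printed above. Red bars are longer than blue bars on every chromosome, most of all on chromosome 2 (145 against 26 regions).

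Regions were most frequent toward the distal ends of chromosomes. Mouse chromosomes have their centromere at the end where numbering starts. When the stretch between the first and last listed region of each chromosome was cut into 5 equal parts, the part farthest from the centromere held 770 of the 2153 regions (35.8%), and the others held 296 to 389. All 3885 listed regions were placed nearly alike, with 33.3% in that part, so the distal excess was shared by the whole table. The regions that could be measured are not given in the table. Gains made up 66.1% of the most distal part and 74.1% of the second part from the centromere, with 64.8% to 72.3% in the other 3.

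Most members had no other listed region within 10 kb, and a minority (31.9%) did. The median distance from a region to the nearest other listed region was 81.8 kb, with an interquartile range of 0.5 to 418.1 kb. A touching neighbour was listed for 482 regions (22.4%), a neighbour within 1 kb for 563 (26.1%) and one within 1 Mb for 1904 (88.4%). Gains had another gain touching them in 26.2% of cases, and losses another loss in 14.0%. Over all 3885 listed regions 20.8% had a touching neighbour and 24.4% had one within 1 kb.

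Neighbouring regions changed in the same direction when close and lost this likeness with distance. Of 254 touching pairs, 253 shared their direction (99.6%, 97.8 to 99.99), and of 49 pairs with starts 0.1 to 1 kb apart, 48 did. The share was 83.3% for 78 pairs at 1 to 10 kb, 64.5% for 318 pairs at 10 to 100 kb, 64.4% for 841 pairs at 100 kb to 1 Mb, and 56.6% for 594 pairs over 1 Mb apart. A pair of directions drawn independently with 68.1% gains would match in 56.6% of cases by arithmetic, which is where the most distant pairs lay. Sizes showed less of this. Touching pairs of the same direction differed by a median of 3.78 points (interquartile range 1.61 to 7.92) and same-direction pairs over 1 Mb apart by 4.43 points. Regions that touch can lie on the same sequenced fragment, so they are not separate measurements. Touching pairs in the other lists also mostly matched, so this was not particular to KO males. They did so in 76 of 81 pairs for KO females against control females. The counts were 110 of 112 for control males against control females and 31 of 31 for KO males against KO females.

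**Figure D3:**
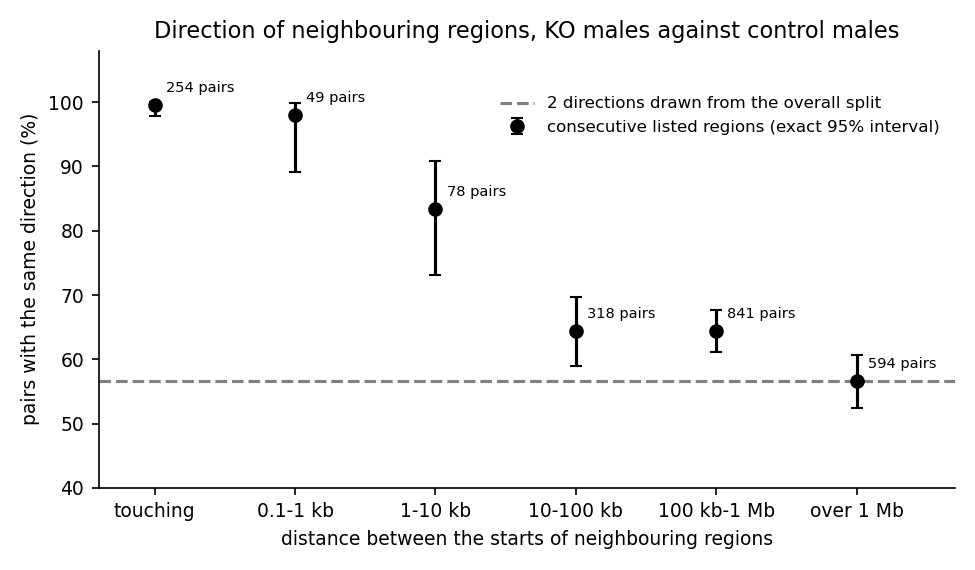
Percent of consecutive listed regions that changed in the same direction in KO males against control males (vertical axis, starting at 40), by the distance between their starts (horizontal axis, classes growing by powers of 10). Points are shares with exact 95% intervals and the dashed line is the 56.6% given by the overall split; the share was 99.6% for touching regions and reached that line only beyond 1 Mb.

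Both exceptions within 1 kb are named here after their values were seen. On chromosome 11 the authors' deposited table gives -29.25 points at 74681101 to 74681201 and 15.79 points at the touching region 74681201 to 74681301. On chromosome 5 it gives, in the authors' deposited table, 20.54 points at 120073801 to 120073901 and -24.86 points at 120074001 to 120074101. These are places where a loss and a gain between the groups were listed side by side. Whether both occurred in the same mice is unknown, as there are no values per mouse.

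When neighbours within 10 kb and of the same direction were merged, 1182 units of gain and 605 units of loss were left. Most units were single regions, 953 of the gains and 539 of the losses. Units of several regions numbered 229 for gains, holding 514 regions, and 66 for losses, holding 147. The median range within a unit was 4.64 points for gains and 3.33 points for losses, and the widest unit of gain spanned 36.0 points. Units of several regions had somewhat larger changes than single regions, with a median of 22.7 against 19.9 points for gains and -20.7 against -19.5 points for losses.

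The fullest units held 4 or 5 regions. Where units had equal numbers of regions, those with the larger mean change were named first, so that 4 of the 8 gain units of 4 regions and 2 of the 8 loss units of 3 regions are described. The unit of gain with the most regions was on chromosome 16, 24391901 to 24395101, where the 5 regions of the authors' deposited table read 21.09, 25.41, 26.5, 31.77 and 20.84 points. KO females had 2 of its regions listed, both as gains. A unit of 4 on chromosome 10, 76032501 to 76032901, read 32.92, 37.33, 25.85 and 16.3 points in the authors' deposited table, so that the change fell off toward one edge. All 4 of its regions also had a listed sex difference in control mice. Another 2 units of gain each had more than 1 region listed as a gain in KO females: chromosome 18, 39522301 to 39523101 (mean 25.2 points in KO males, 2 of 4 regions listed in KO females), and chromosome 9, 62883201 to 62893901 (mean 24.9 points, 3 of 4 regions). On chromosome 19, 46208701 to 46212501, no region of the unit was listed in KO females (mean 24.2 points in KO males), and all 4 had a listed sex difference in control mice.

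The unit of loss with the most regions was on chromosome 5, 111848201 to 111849501, with 5 regions at -20.79, -20.59, -18.32, -15.27 and -16.01 points in the authors' deposited table, of which 1 was also listed as a loss in KO females. The other 4 units of loss were chromosome 5, 115328801 to 115329201 (4 regions, mean -24.2 points), chromosome 16, 96380701 to 96381301 (4 regions, mean -18.6 points), chromosome 5, 129287901 to 129298501 (3 regions, mean -21.6 points), and chromosome 18, 7001801 to 7002501 (3 regions, mean -21.5 points). None of the regions in these 4 units was listed in KO females.

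On a larger scale, the list was densest on the distal parts of chromosomes 4 and 5. Of 415 windows of 5 Mb that held a listed region, with a median of 4 regions, the 5 fullest were chromosome 4, 130 to 135 Mb (29 regions) and 140 to 145 Mb (27), and chromosome 5, 115 to 120 Mb (26), 120 to 125 Mb (26) and 125 to 130 Mb (28). Together they held 136 regions in 112 units, 6.32% of the list. As a share of the regions listed there for any comparison, the KO male list held 61.7% and 73.0% in the windows on chromosome 4. On chromosome 5 it held 89.7%, 78.8% and 82.4%, in order of position. Its share of all 3885 listed regions was 55.4%. Between the named windows on chromosome 4, the window from 135 to 140 Mb held 24 of 48 (50%). Pooled over the 5 windows there were 73 gains and 63 losses (53.7% gains), against 69.1% gains over the other 2017 regions. The windows differed among themselves. Gains made up 34.6%, 65.4% and 50% of the 3 windows on chromosome 5, in order of position, and 62.1% and 55.6% of those on chromosome 4. The median gain was 20.0 points in these windows and 20.5 points outside them, and the median loss -20.1 and -19.5 points. KO females had 12 of the 136 regions listed (8.82%), against 18.5% of the regions outside the windows. KO males and KO females were listed as different at 32 of the 136 (23.5%), against 12.1% outside. All 9 of the regions on chromosome 5 that were also listed in KO females had the same direction there, and none of the 3 on chromosome 4 did. The windows were picked for their counts, and these differences carry no test.

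Across the 37 windows with at least 12 regions, the share of gains ran from 34.6% to 100%. At least 90% were gains in 7 of them, led by chromosome 15, 85 to 90 Mb (12 of 12), chromosome 6, 140 to 145 Mb (16 of 17), and chromosome 3, 50 to 55 Mb (15 of 16). Close regions of the same direction add to these counts. Merged within 10 kb, the regions of these windows made 7, 14 and 8 units, in the same order. Losses were the majority in 4. Of these 37 windows, 14 had at least 4 regions that were also listed in KO females. All such regions had the same direction in both sexes in 9 of the 14. Opposite directions were the majority in 4 of the 14. These were chromosome 18, 75 to 80 Mb (0 of 4 with the same direction) and 80 to 85 Mb (0 of 4), chromosome 6, 140 to 145 Mb (1 of 7), and chromosome 8, 125 to 130 Mb (1 of 4). The limits of 12 and 4 regions were set after the values were seen, and these splits carry no test.

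Most regions were listed for KO males against control males and for nothing else. This was so for 1299 of the 2153 (60.3%), with 896 gains and 403 losses. A further 663 were listed in 1 other comparison, 120 in 2 and 71 in all of the other 3. Regions listed nowhere else had a median gain of 19.7 points and a median loss of -18.8 points. In the 71 listed everywhere the medians were larger in size, at 24.6 and -23.8 points. Being unlisted elsewhere is not a measured absence of a difference.

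KO females against control females is the other comparison of KO with control mice in the table, and it shares no mouse with the male comparison. The KO female titles carry the codes G131 (1 library) and G132 (5), and the control female titles G129 (2) and G130 (3). No code is shared between KO females and control females, so genotype and whatever the codes mark cannot be told apart here either. Code G129 occurs in control mice of both sexes, G131 in KO mice of both sexes, and G130 in KO males and control females. KO females had 385 of the 2153 regions listed, which is 17.9% of the KO male list and 35.3% of the 1092 regions in the KO female list. KO females were listed at 28.1% of all 3885 regions (17.1% as gains and 11% as losses), and a region outside the male list must be listed in some other comparison to be in the table at all. Regions also listed in KO females had larger changes in KO males, with a median size of 22.3 points, against 19.9 points in regions not listed in KO females. The share also listed in KO females was 15.02% for gains of 15 to 20 points, 17.3% at 20 to 25, 23.4% at 25 to 30, 32.7% at 30 to 40 and 31.3% (10 of 32) at 40 to 60. For losses it was 12.5%, 14.0%, 19.4%, 18.8% and 47.4% (9 of 19) in the same classes.

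**Figure D4:**
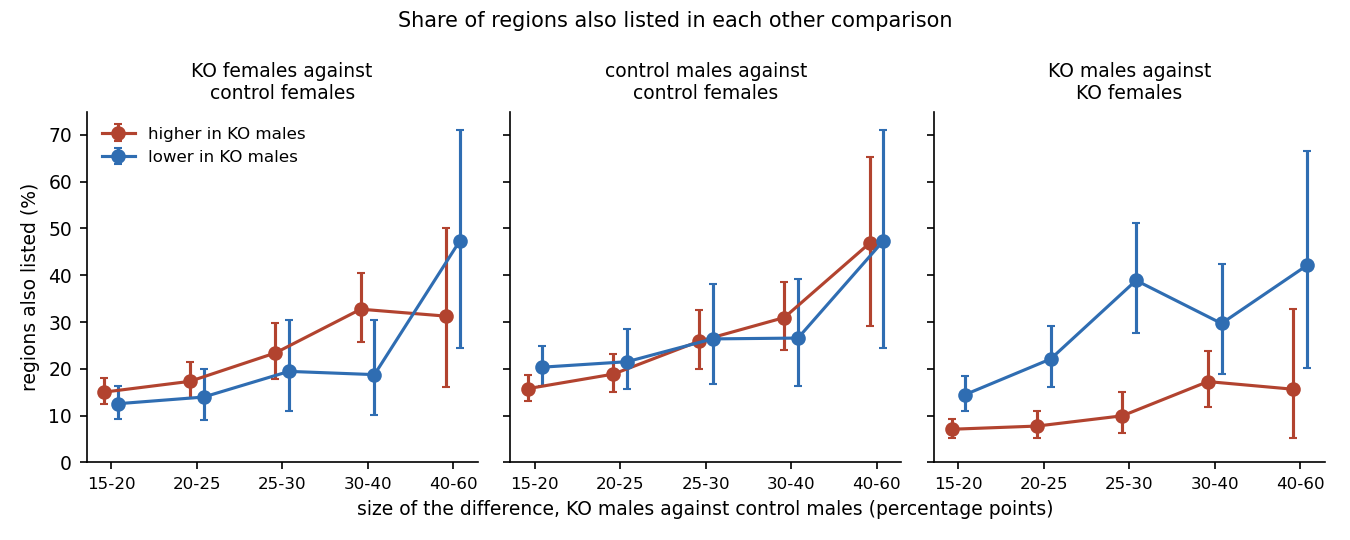
Percent of regions of the KO male list that were also listed in each of the other 3 comparisons (vertical axes), by the size of the difference between KO males and control males in percentage points (horizontal axes). Red marks regions higher in KO males, blue those lower in KO males, and bars are exact 95% intervals; the middle panel shares the control males with the KO male comparison and the right panel shares the KO males.

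Gains in males were more often gains in females than losses were losses. Of the 281 gains also listed in KO females, 238 were gains there too (84.7%, 79.9 to 88.7). Of the 104 losses also listed, 69 were losses there too (66.3%, 56.4 to 75.3). As gains are the commoner direction in both sexes, a higher figure for gains is also what independent directions would give, and the gap carries no test. The share with the same direction did not climb with size: it was 83.7% of 147 regions at 15 to 20 points in males, 74.7% of 91 at 20 to 25, 75.4% of 61 at 25 to 30, 82.1% of 67 at 30 to 40 and 78.9% of 19 at 40 to 60.

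Where both sexes gained, the sizes differed by a median of 4.62 points, and where both lost, by 7.7 points. In the 238 regions higher in both, the median was 22.6 points in KO males and 21.3 points in KO females, and the male gain was the larger at 133. In the 69 regions lower in both, the median was -19.7 points in KO males and -25.9 points in KO females, and the male loss was the larger at 22. Losses were also larger in the whole KO female list, with a median of -21.5 points, against -19.5 points in the KO male list. Neither sex difference, in KO or in control mice, was listed at 197 of the 238 regions higher in both and at 31 of the 69 regions lower in both. Members of these classes not cited so far include chromosome 5, 123220901 to 123221001, with 38.03 points in males and 39.57 in females in the authors' deposited table. Others higher in both are chromosome 1, 190730401 to 190730501, with 35.17 and 38.88 points, and chromosome 17, 25269901 to 25270001, with 34.98 and 34.94 points, in the authors' deposited table. Among regions lower in both, the authors' deposited table gives -32.16 points in males and -58.39 in females at chromosome 1, 155201101 to 155201201, and -31.71 and -33.2 points at chromosome 3, 50865801 to 50865901.

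At 78 regions the sexes were listed with opposite directions, 43 with a gain in KO males and a loss in KO females, and 35 the reverse. The medians were 23.1 points in KO males and -23.0 in KO females for the first kind, and -23.6 and 23.7 points for the second. Among the 5 largest, the authors' deposited table gives -31.91 points in males and 39.84 in females at chromosome 9, 91098201 to 91098301. At chromosome 6, 141549001 to 141549101, it gives 30.54 points in males and -55.75 in females in the authors' deposited table. At that position the authors' deposited table also lists both sex differences, 52.58 points for KO males minus KO females and -31.32 points for control males minus control females. If each group has a single level, opposite changes in the sexes force these sex differences apart by arithmetic, so they are no separate finding.

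**Figure D5:**
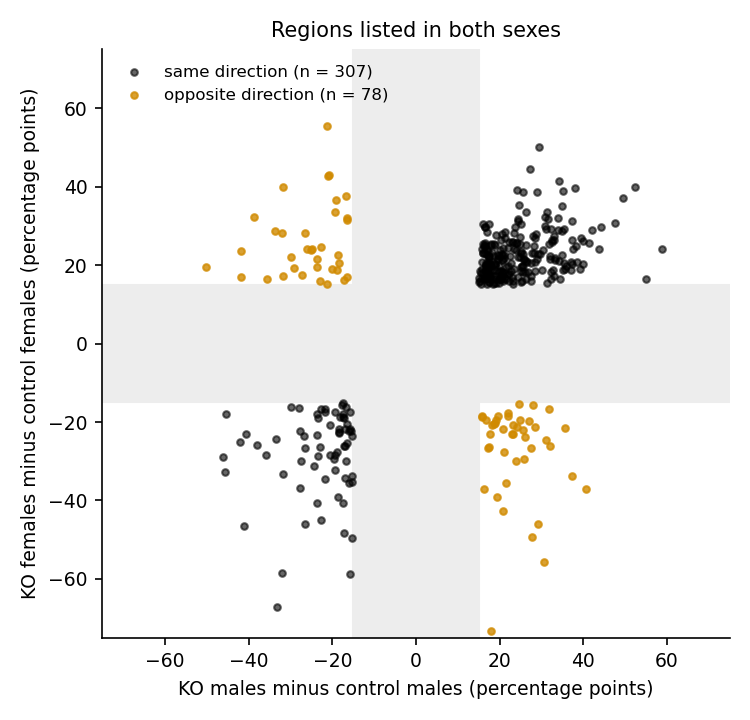
Differences in percentage points at the 385 regions listed in both sexes, KO males minus control males (horizontal axis) against KO females minus control females (vertical axis). Each point is a 100 bp region, black for the 307 with the same direction and orange for the 78 with opposite directions, and the grey bands are the ranges in which nothing was listed; the upper right field, higher in both, holds 238 points.

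The comparisons between the sexes share mice with this one, so listing in both is favoured by the shared group and only the counts and values are given. Control males were listed as different from control females at 454 of the 2153 regions (21.1%, which is 30.4% of that list), at 20.4% of the gains and 22.6% of the losses. These figures compare with 38.4% of all 3885 regions. That share, like the 18% below, includes regions outside the male list, which are in the table only because another comparison listed them. A lower share in the KO male list is therefore no sign of depletion by itself. KO males were listed as different from KO females at 277 (12.9%, or 39.6% of that list), against 18% of all 3885 regions. Here gains and losses stood apart, at 8.998% of 1467 gains and 21.1% of losses (145 of 686). In each size class the share was higher for losses, for example 38.9% of 72 losses and 9.95% of 201 gains at 25 to 30 points. This gap carries no test, and the KO males enter both comparisons.

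Single regions show how the columns stood side by side. At chromosome 3, 119802001 to 119802101, the site of the largest gain, the authors' deposited table also lists 24.09 points for KO females minus control females, 15.31 for KO males minus KO females and -19.42 for control males minus control females. At chromosome 11, 88289701 to 88289801, the largest loss, the authors' deposited table has a control sex difference (males minus females) of 58.88 points, the same size as the loss, and lists neither KO females against control females nor the KO sexes. At chromosome 11, 84777601 to 84777701, the third largest loss, the authors' deposited table has 19.39 points for KO females minus control females, -17.04 for KO males minus KO females and 52.52 for control males minus control females. At chromosome 5, 76133701 to 76133801, the second largest loss, the authors' deposited table lists no other comparison. Of the 10 largest gains, 5 were also listed in KO females and 1 in no other comparison. Of the 10 largest losses, 4 were also listed in KO females and 3 in no other comparison. In the whole list, 19.2% of gains and 15.2% of losses were also listed in KO females, and 60.3% of regions in no other comparison. These small counts carry no test.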

How the data were processed

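The authors deposited 1 table of 100 bp regions with, per the file headers and legend, 4 columns of differences in percent methylation between groups, listed where the absolute difference exceeded 15 percent at a q-value under 0.05. Per the submitters' processing notes, the tools were Trim Galore 0.4.3, Bismark and methylKit and the build was mm9. No source used here gives the coverage minimum or how replicates entered the test, and the coverage behind a value is unknown. A strict listing threshold makes the overlap of lists depend on coverage and spread in each group.

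From the table, counts, medians, distances between starts of consecutive regions, merged units (within 10 kb, same direction), 5 Mb windows and exact Clopper-Pearson 95% intervals were computed with Python 3.11.15, pandas 2.3.3 and scipy 1.17.1; the distance and merging steps were checked on made-up tables. No test was run, since no value per mouse is in the table. Regions named were the 10 largest in each direction, the 5 units with the most regions in each direction (ties by mean size), the 5 fullest windows, and the 5 largest in both sexes per class, ranked by the smaller difference; other windows and both opposite pairs were added after their values were seen. The regions and choices were made with earlier results of these data known. The gene and cell marker lists prepared for a matching annotation were not applied, as the gene table at hand is of GRCm38.p6. Alternatives were a minimum of 25 points, merging, other neighbour distances, and leaving out chromosome 11 or, added later, chromosome 2.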

Additional observations from a re-analysis of the deposited data

How the results depend on the processing

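Of 29 alternative values for 6 results, 20 stayed within the exact interval of the share (or within 1.5 times of the count) and 9 moved. None changed direction, but the counts and the share also listed in KO females have no direction that could change. Most alternatives were also overlapping parts of the same list, so their likeness is no independent check. With a minimum of 25 points in KO males, 401 regions were higher and 155 lower, the share of gains was 72.1%, all 54 neighbouring pairs within 1 kb matched (100%), and the share also listed in KO females was 26.4%. That share was 19.6% with neighbours within 10 kb merged, and 22.6% when a KO female region within 1 kb counted as shared. The share of neighbours with the same direction was 96.1% within 10 kb and 81.7% within 100 kb. The share of same directions between the sexes ranged from 78.0% (without chromosome 2, an alternative chosen after seeing the data) to 82.7% (a KO female region within 1 kb). No paired analysis was possible because the table has no values per mouse, and for the same reason no mouse could be left out in turn. The depth behind the differences is unknown, so its limits cannot be given.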

Other observations

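Where a region of the KO male list had 3 of the 4 differences listed, the fourth follows by arithmetic if each group has a single level, because the KO sex difference equals the control sex difference plus the KO change in males minus the KO change in females. At 64 regions the comparison of KO males with KO females was the unlisted one, and the implied difference was under 15 points at 42 of them (median size 11.5 points, largest 60.1). At 21 regions the control sexes were unlisted and the implied value was under 15 points at 15. At 35 regions KO females against control females was unlisted and the implied value was under 15 points at 24. At the other 22, 6 and 11 regions the implied difference was 15 points or more and the region was not listed. The condition of a single level per group does not always hold in the table: among the 71 regions listed in all 4 comparisons, the implied KO sex difference was over 5 points from the listed one at 18, and by 33.0 points at most. An implied value is therefore no measurement of the unlisted difference.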
